A study of Bos taurus with 20 samples.

Results

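CD55 was examined together with 8 other genes of the complement system in bovine mesenchymal stem cell (MSC) clones. The 9 genes were chosen by name from the table of raw counts, which lists 33063 named genes, and all 9 were present in it. They are CD55, CD46 and CD59, which protect the cell surface from complement, CFI, a protease of the fluid phase that inactivates C3b, and the components C3, CFB, C1R, C1S and C7. The data are RNA sequencing libraries of 20 clones without any treatment. Each was expanded from 1 cell, sorted from an MSC preparation of bovine adipose tissue that had already been passaged in culture. The medium held serum, bFGF and medium conditioned by MSC cultures of the same animal. Of the 20 clones, 10 were adipogenic (A clones, with strong lipid staining after differentiation) and 10 were non-adipogenic (N clones, without it). The labels name the lipid stain as Oil Red O, and the study's methods name it as BODIPY. Animals 17 and 20 gave 1 A and 1 N clone each, and animals 22 and 23 gave 4 A and 4 N clones each. Clones are named by animal and clone number, so that 22-5 is clone 5 of animal 22. Each clone is a line from 1 founder cell with 1 library, so the spread given here is that between clones, and p-values do not measure the spread between animals.

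Complement is a cascade of plasma proteins that is started by antibody (C1q with the proteases C1r and C1s), by sugars (lectins with MASP proteases) or by spontaneous turnover of C3 with factor B. All routes cleave C3, and the terminal components, among them C7, then build a pore in the target membrane. Host cells restrain the cascade with membrane proteins: CD55 speeds the decay of the C3-cleaving enzymes, CD46 is a cofactor for cleavage of C3b and C4b by factor I, and CD59 blocks the last step of pore assembly. CD55 and CD59 are held in the membrane by a glycosylphosphatidylinositol (GPI) anchor. In mouse and human adipose tissue, CD55 is also used as a surface marker of early stromal progenitors.

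Total counts per clone ranged from 14615493 to 43111345, and 3 counts, the upper limit set for a gene with no count, came to between 0.0764 and 0.216 CPM (counts scaled to a library of fixed size) depending on the clone. This limit covers counting error only. Levels are CPM scaled by library size and TMM factor. They are not corrected for transcript length, so levels of different genes were not ranked against each other. The 10 mesenchymal stromal markers, such as COL1A1, THY1 and PDGFRA, were detected, with sums of 23700 to 44400 CPM in N and of 31700 to 55100 CPM in A clones. The summed level of 11 macrophage markers was 0.944 to 10.9 CPM in N and 2.93 to 12.7 CPM in A clones. The medians were 2.58 CPM in N and 8.76 CPM in A clones. PTPRC had 8 counts over all clones, and C1QA, C1QB and C1QC had 0. CSF1R, which was not tested, averaged 0.0975 CPM in N and 1.01 CPM in A clones, with 10 A clones above every N clone. CD14 and CD163, also not tested, had 447 and 256 counts. The summed level of 9 mesothelial markers, by contrast, ranged from 8.82 to 9420 CPM among N and from 8.58 to 1130 CPM among A clones. It was highest in N clones 22-5 (9420 CPM) and 22-9 (6740 CPM) and A clones 22-11 (1130 CPM) and 22-16 (965 CPM), all of animal 22. The sum is weighted to keratins: in N clones KRT8, KRT19 and KRT18 had the highest means of the list, at 751, 407 and 170 CPM. LRRN4, WT1 and MSLN followed, at 134, 101 and 95.9 CPM. Of 6 pericyte and smooth muscle markers, 5 were tested and 3 were higher in A clones (CSPG4, NOTCH3 and MYH11), with sums of 103 to 5710 CPM in N and of 841 to 7770 CPM in A clones, and of the macrophage list CD68, the 1 gene tested, was higher. Of the 7 mesothelial markers tested, MSLN was lower in A clones (log2 fold change -1.97, adjusted p = 0.0393, edgeR quasi-likelihood test), with a median of -1.79 over the list. Over all genes tested, 10.3% were called higher and 10.3% lower in A clones. The part of these markers in the differences given here was not tested. In bulk RNA of a clone, fewer cells with a transcript and less RNA per cell cannot be told apart.

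CD55 was the member whose RNA level was called different between A and N clones. Levels here are of RNA and not of surface protein. By flow cytometry of MSC preparations, which were not these clones, the study found an almost negligible share of CD55-positive cells. It was lower in A clones, with a mean of 50.2 ± 52.7 CPM against 253 ± 117 CPM in N clones (SD, n = 10 clones each). The N clones lay between 103.9 and 427.8 CPM with a median of 258.0 CPM, and the A clones between 1.02 and 159.1 CPM with a median of 42.3 CPM. Below every N clone lay 8 of the 10 A clones, and above every A clone lay 7 of the 10 N clones. The log2 fold change of A against N clones was -2.78 (standard error 0.626, 95% interval -4.10 to -1.46), a 6.88-fold lower level, with an adjusted p of 0.00695 (edgeR quasi-likelihood test with the animal as a block, adjusted over 12900 genes). CD55 was 1 of 7 members tested, and the only one called at an adjusted p under 0.05. The study had already reported CD55 as lower in A clones from the same libraries, so this call is not independent of that report. The study also reported the CD55 difference by quantitative PCR, in an extended set of clones. Over all genes tested 20.6% were called, and 10.3% were called lower in A clones, so 1 call among 7 is not above the background. CFI and C7 did not pass the filter on low counts and were not tested.

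CD55 was lower in the A than in the N clones sequenced from each animal, although animals 17 and 20 had only 1 clone of each kind. In animal 17, the A clone was at 1.02 CPM (15 counts) and the N clone at 115 CPM. In animal 20, the A clone was at 159 CPM and the N clone at 253 CPM. In animal 22, the A clones 22-11, 22-16, 22-27 and 22-121 were at 55.0, 58.8, 5.71 and 3.71 CPM, and the N clones 22-5, 22-9, 22-17 and 22-18 at 428, 282, 104 and 143 CPM. The same separation held in animal 23, where the A clones 23-14, 23-62, 23-68 and 23-108 were at 11.1, 29.5, 61.7 and 116 CPM. The N clones 23-10, 23-22, 23-23 and 23-74 of that animal were at 320, 428, 195 and 263 CPM. Thus all 10 A clones lay below every N clone of their own animal. The smallest gap between the lowest N and the highest A clone of an animal was 1.59-fold, in animal 20. This log2 difference of -0.67 between 1 A and 1 N clone was smaller than the SD of 1.37 between clones of the same animal and condition. The overlap of the pooled groups came from A clones 20-106 and 23-108, which lay above the N clones 22-17 and 17-23, and A clone 20-106 also above N clone 22-18.

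**Figure D1:**
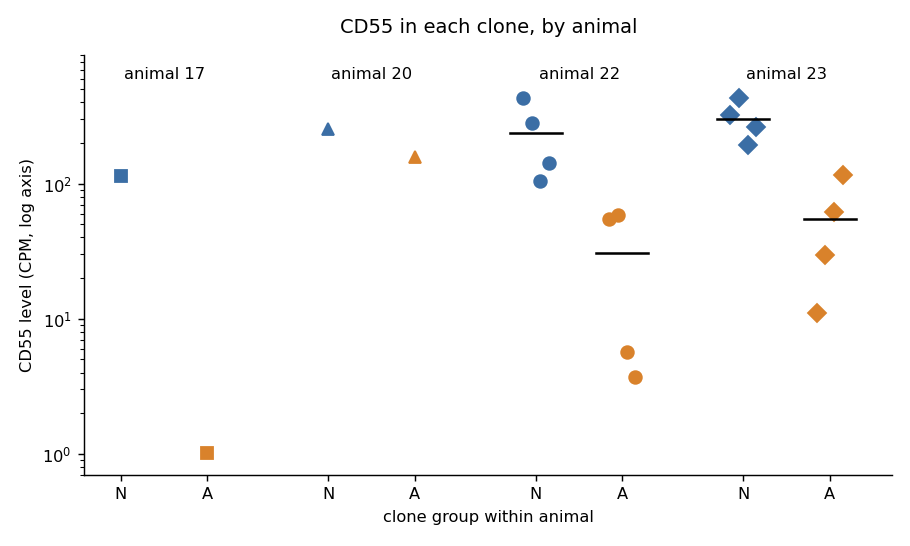
CD55 level in CPM (log axis) of each clone, with N clones in blue and A clones in orange within each animal. Black lines are means of the 4 clones of a group in animals 22 and 23. Each A clone lies below every N clone of its animal, and the A clones spread over a wider range (1.02 to 159.1 CPM) than the N clones (103.9 to 427.8 CPM).

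In order of CD55 level, the first 7 clones were N clones, led by 22-5 and 23-22 at 428 CPM each, which did not differ at this precision. A mixed stretch followed, with A 20-106 at 159 CPM, N 22-18 at 143 CPM, A 23-108 at 116 CPM, N 17-23 at 115 CPM and N 22-17 at 104 CPM. The spread within either group exceeded the steps between neighbours in that stretch. The last 8 clones were A clones, from 61.7 CPM down to 1.02 CPM. The level varied 4.12-fold among N clones and 156-fold among A clones, and 419-fold over all. Within animal and condition, the SD of CD55 on the log2 scale was 1.37, against a median of 0.32 over all genes tested.

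A dependence of the CD55 difference on the animal was not detected. The A against N difference was -3.65 on the log2 CPM scale in animal 22 and -2.88 in animal 23, and the interaction term over these 16 clones was 0.49 (95% interval -2.002 to 2.99, adjusted p = 0.932). An interval this wide leaves room for sizeable differences in either direction. None of the 7 members tested was called in the interaction, where 0.031% of 12915 genes were called and 0 members had an unadjusted p under 0.05 (0 members also by DESeq2). Leaving out animal 22 gave a log2 fold change of -2.64 for CD55 with an adjusted p of 0.0523 (quasi-likelihood test). Leaving out animal 23 gave -3.06 with an adjusted p of 0.136, so the call was lost in both fits. Both fits held fewer clones, and genes called over the whole table fell from 2658 to 1471 without animal 22 and 32 without animal 23. Without the 4 clones of high mesothelial marker level (22-5, 22-9, 22-11 and 22-16) CD55 kept its call, at -3.19 (adjusted p = 0.0137). This cut was chosen after seeing the data, and the part of these markers in the CD55 difference was not tested.

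The other membrane regulators among the members did not pass the test. CD46 averaged 306 ± 49.0 CPM over N clones (246.1 to 408.4, median 311.6) and 394 ± 102 CPM in A clones (250.3 to 583.7, median 374.1). Its groups overlapped widely, with 3 A clones above every N clone, and in each of the 4 animals the A mean exceeded the N mean. The log2 fold change was 0.35 (95% interval 0.076 to 0.63, adjusted p = 0.0646 from the quasi-likelihood test). CD46 crossed the threshold under 3 alternatives that kept all clones (adjusted p of 0.0497 with upper-quartile normalization, 0.0346 and 0.0425 with DESeq2 with and without the block) and without N 22-5 (0.0474) or A 23-108 (0.0386). Its levels spanned a 2.37-fold range over all 20 clones, with an SD within animal and condition of 0.27 on the log2 scale.

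CD59 averaged 92.9 ± 78.0 CPM over N clones (44.7 to 306.8, median 61.3) and 116.5 ± 27.5 CPM in A clones (67.4 to 171.4, median 119.4). The N mean was carried by N 20-15 at 307 CPM. The next N clone, 17-23, was at 113 CPM. CD59 had a log2 fold change of 0.56 (95% interval 0.091 to 1.04, adjusted p = 0.0814). Animals went different ways: in animal 22 all 4 A clones (119 to 171 CPM) lay above every N clone, and in animal 23 3 of 4 did, while in animals 17 and 20 the A clone was below the N clone (90.4 against 113 CPM and 134 against 307 CPM). Without animal 20 the log2 fold change of CD59 was 0.74 with an adjusted p of 0.0137 (quasi-likelihood test). Leaving out only N 20-15 or only A 20-106 gave the same estimate (adjusted p of 0.0135 and 0.0136). With the animal as a block, the clone then left of animal 20 has no partner to be compared with. These fits are therefore 1 check, which removes animal 20, and not separate checks of each clone. CD59 was also called by DESeq2 with the block (adjusted p = 0.0394). In the other direction, its log2 fold change was 0.18 without animal 22 (adjusted p = 0.698), 0.33 without the block (adjusted p = 0.466) and 0.32 without the 4 clones of high mesothelial marker level (adjusted p = 0.367). Whether animals 17 and 20 differ from the others in this was not tested.

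Reads of the 3 membrane regulators together came to 471 to 891 CPM in N clones and 434 to 877 CPM in A clones. Of these reads, CD55 gave between 21.2% and 56.4% in N clones and between 0.221% and 26.8% in A clones. Across the 20 clones, with log2 CPM centred within each animal, CD55 varied opposite to CD46 (r = -0.538) and CD59 (r = -0.531). Within condition as well, over the 16 clones of animals 22 and 23, the values were -0.605 and -0.242. These correlations describe these clones, whose points share library and depth between the genes.

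**Figure D2:**
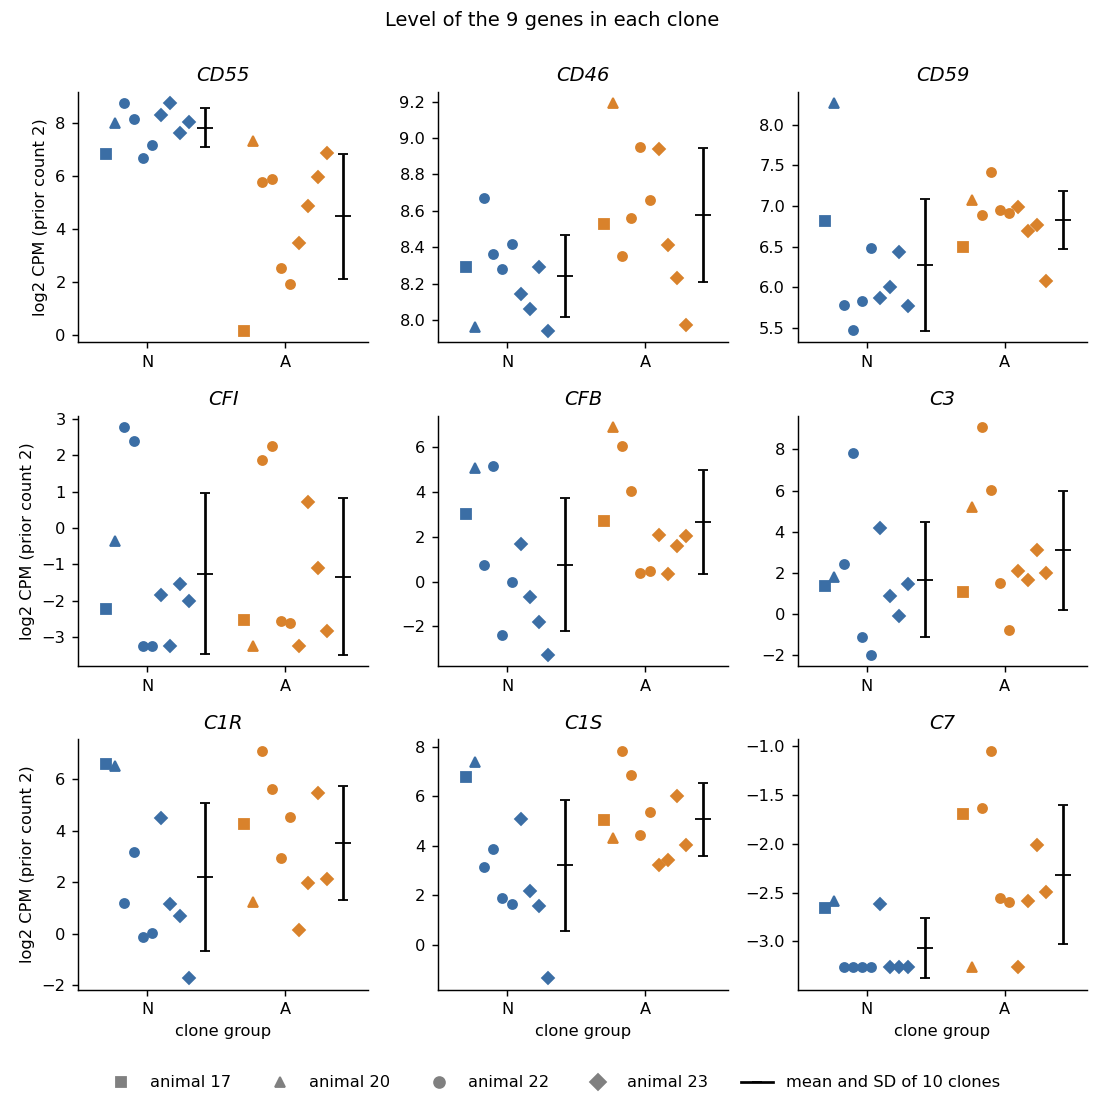
Level of the 9 genes in each of 20 clones, on the log2 CPM scale with a prior count of 2, N clones in blue and A clones in orange, marker shape showing the animal, and bars showing mean and SD of 10 clones. For CD55, 8 A clones lie below every N clone, CD46 and CD59 span narrow ranges apart from N 20-15 for CD59, and CFI, CFB, C3, C1R and C1S each vary over several log2 units within both groups.

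CFB and C3, the factors of the alternative pathway convertase, varied widely within both groups and did not pass the test. C3, the protein on which all routes converge, ranged over 0.153 to 226 CPM among N clones (median 2.57) and over 0.487 to 539 CPM among A clones (median 4.02). In each group 1 clone of animal 22 held most of it, N 22-9 with 86.7% and A 22-11 with 81.1% of the summed level of the group. C3 had a log2 fold change of 0.78 (95% interval -1.73 to 3.29, adjusted p = 0.668), and without A 22-11 the estimate turned to -0.38 (adjusted p = 0.844). It was 2.07 without N 22-9 (adjusted p = 0.378) and 1.47 without N 23-10 (adjusted p = 0.398). CFB ranged over 0 to 35.8 CPM among N clones (median 1.24) and over 1.16 to 118 CPM among A clones (median 4.06), with A 20-106 highest at 118 CPM and A 22-11 next at 66.1 CPM. Its log2 fold change was 1.28 (95% interval -0.65 to 3.20, adjusted p = 0.325), and single clones moved it to 2.49 (without N 22-9, adjusted p = 0.0962) or 0.63 (without A 22-11, adjusted p = 0.677). Among the tested genes, C3 and CFB were at the 99.9th and 99.5th percentile of spread between clones of the same animal and condition.

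C1R and C1S, the proteases of the first complex of the classical pathway, moved together from clone to clone. C1R ranged over 0.194 to 97.3 CPM among N clones (median 2.12) and over 0.982 to 138 CPM among A clones (median 13.2). C1S ranged over 0.292 to 167 CPM among N clones (median 6.53) and over 9.37 to 229 CPM among A clones (median 27.6), and 6 of the 10 N clones lay below every A clone. Log2 fold changes were 1.66 (95% interval -1.01 to 4.33, adjusted p = 0.357) for C1R and 1.76 (95% interval -0.31 to 3.82, adjusted p = 0.204) for C1S, and both genes had groups that overlapped. Single clones moved C1R to 2.93 (without N 23-10, adjusted p = 0.118) or 0.59 (without A 23-68, adjusted p = 0.814), and C1S to 2.77 (without N 23-10, adjusted p = 0.0591).

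The direction of this pair differed between the clones of different animals, of which animals 17 and 20 had only 1 A and 1 N clone each. In animal 22 the A clones had a mean of 102 ± 94.0 CPM of C1S against 7.51 ± 5.46 CPM in N clones, with all 4 A clones above every N clone, and for C1R 3 of 4 A clones lay above. In animal 23, 1 of 4 A clones lay above every N clone for both genes. In animal 17 the N clone was higher, at 97.3 against 18.9 CPM for C1R and 111 against 33.2 CPM for C1S. In animal 20 it was also higher, at 91.9 against 2.21 CPM for C1R and 167 against 20.0 CPM for C1S. The SD between clones of the same animal and condition was 2.06 for C1R and 1.72 for C1S on the log2 scale. Whether animals 17 and 20 differ from the others in this pair was not tested. Without animal 22, the log2 fold change of C1R turned to -0.22 (adjusted p = 0.938) and that of C1S was 0.21 (adjusted p = 0.917). The interaction of condition and animal between 22 and 23 was -3.10 for C1R (adjusted p = 0.661) and -2.48 for C1S (adjusted p = 0.660), with intervals that included 0. Without N 23-10 these were -0.72 and -0.45, without A 23-68 the value for C1R was -5.22, and without A 22-11 it was -2.06.

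**Figure D3:**
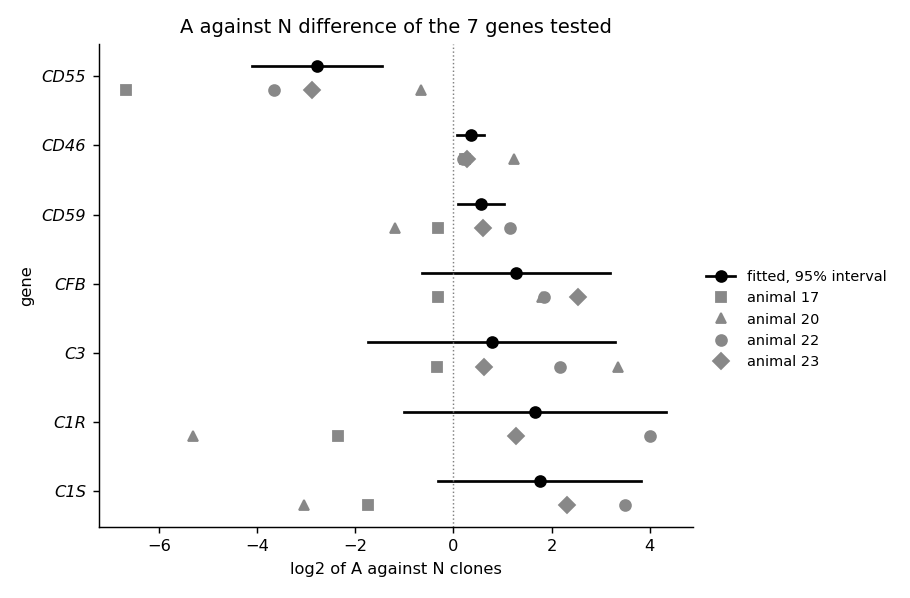
Differences of A against N clones, on the log2 scale, for the 7 genes that passed the filter. Black points are the fitted log2 fold changes over all 20 clones with 95% intervals, and grey markers are differences of mean log2 CPM within each animal. CD55 lies below 0 in all 4 animals and CD46 above 0 in all 4, while CD59, C1R and C1S lie below 0 in animals 17 and 20 and above 0 in animals 22 and 23.

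Over all 20 clones, with log2 CPM centred within animal, C1R and C1S correlated at r = 0.951, and at 0.955 within animal and condition (16 clones). The 2 genes lie next to each other in the RefSeq annotation of assembly ARS-UCD2.0. C3 and CFB correlated at 0.859 and 0.891 on the same scales, CFB and C1S at 0.719 and 0.760, and C3 and C1R at 0.515 and 0.648. CD55 did not follow them across the groups (r = 0.148 with C3 and -0.044 with CFB, 20 clones), whereas within animal and condition the values were 0.669 with C3 and 0.602 with CFB (16 clones). All of these are descriptions of clones whose genes share a library and its depth.

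**Figure D4:**
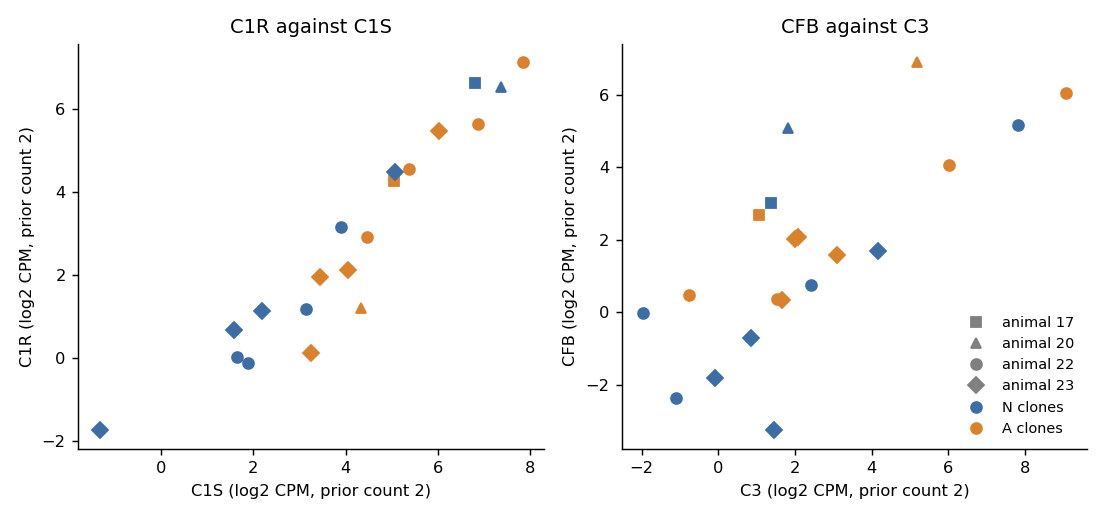
C1R against C1S, and CFB against C3, on the log2 CPM scale (prior count 2) in the 20 clones, N clones in blue and A clones in orange, marker shape showing the animal. C1R and C1S vary together, with A 20-106 and A 23-14 low in C1R for their C1S, and CFB and C3 vary together with more scatter, A 20-106 being high in CFB.

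CFI, which cleaves C3b with CD46 as a cofactor, had at least 1 count in 15 of the 20 clones. It was low throughout and highest in 5 clones, at 1.53 to 6.78 CPM. It had 120 counts in N 22-5, 87 in N 22-9, 98 in A 22-11, 74 in A 22-16 and 25 in A 23-62. The other 15 clones had at most 11 counts, which N 20-15 held. These 5 clones, from both conditions, were also the 5 of highest mesothelial marker level, with 401 CPM in A 23-62. Across the 20 clones, with log2 values centred within animal, CFI correlated with the summed mesothelial markers at r = 0.832, C3 at 0.610, CD55 at 0.515 and CFB at 0.348. CD59 was at -0.406, CD46 at -0.295, C1R at 0.185, C7 at 0.121 and C1S at 0.094. The part of mesothelial-like cells in these levels was not tested. The clones differ within this group too, since C3 was at 5.25 CPM in N 22-5 and 226 CPM in N 22-9. An overlapping gene in the same annotation, LOC101905887, held 22 counts over all clones against 436 for CFI.

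**Figure D5:**
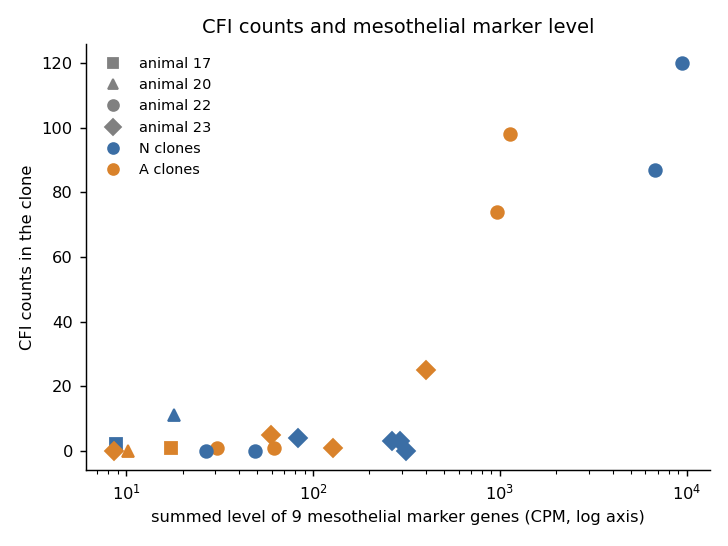
CFI counts per clone against the summed level of 9 mesothelial marker genes in CPM (log axis), N clones in blue and A clones in orange, marker shape showing the animal. The 5 clones with 401 CPM or more of the markers have 25 or more CFI counts, and every other clone has 11 or fewer.

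C7, which joins the growing pore complex of the terminal pathway, was at the limit of detection, with 25 counts over all clones. The A clones held 0 to 6 counts and the N clones 0 or 1, so C7 was at or under 3 counts in every clone except A 22-11 and A 22-16, with 6 counts each. Fitted without the filter on low counts, its adjusted p was 0.0489, a call that rests on these few counts.

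None of the 7 members tested was called in the comparison of animal 23 with animal 22, in which 0.108% of 12915 genes were called. The largest difference was that of C3, with an estimate of -4.15 on the log2 scale for animal 23 against 22 (95% interval -7.29 to -0.996, unadjusted p = 0.0133, adjusted p = 0.262 from the quasi-likelihood test). C3 was at 0.153 to 539 CPM in the 8 clones of animal 22 and at 0.84 to 17.8 CPM in those of animal 23. The estimate for CFB was -3.05 (adjusted p = 0.282). Without N 22-9 these were -2.56 for C3 (adjusted p = 0.727) and -1.61 for CFB (adjusted p = 0.657). Members with an unadjusted p under 0.05 numbered 2, and by DESeq2 C3 was called (adjusted p = 0.0226).

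Of 51 other complement genes, 49 were in the table, 11 had no count, and 15 passed the filter, of which 3 were higher and 0 lower in A clones, against 10.3% called in each direction over all genes tested. Their median log2 fold change was 0.435, against -0.0101 over all genes tested and 0.777 over the members tested. THBD (thrombomodulin, a membrane protein that also promotes inactivation of C3b) averaged 2.05 ± 3.61 CPM in N and 78.2 ± 93.7 CPM in A clones, with 7 A clones above every N clone (log2 fold change 5.88, adjusted p = 0.0119). C1RL, a protease similar to C1R, was at 1.96 ± 2.03 CPM in N and 5.595 ± 1.68 CPM in A clones (log2 fold change 1.82, adjusted p = 0.00185). MASP1, a protease of the lectin pathway, had medians of 0.0524 CPM in N and 1.52 CPM in A clones (log2 fold change 3.33, adjusted p = 0.0304), with A 20-106 at 357 CPM. MASP2, of the same pathway, had 80 counts over all clones and was not tested.

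Other genes of the pathway were tested without a call, or had few or no counts. Of the fluid-phase regulators, CLU (clusterin) was at 243.5 ± 138 CPM in N and 284.8 ± 261 CPM in A clones (adjusted p = 0.771, quasi-likelihood test). The C1 inhibitor SERPING1 was at 5.37 ± 11.8 and 5.45 ± 5.87 CPM (log2 fold change 1.36, adjusted p = 0.368). Its medians were 0.412 CPM in N and 3.83 CPM in A clones, and N 17-23 was highest at 38.2 CPM. Of the classical pathway, C4A was at 66.7 ± 110 CPM in N and 23.9 ± 30.2 CPM in A clones (log2 fold change -0.13, adjusted p = 0.944). Its medians were 14.0 and 11.5 CPM, and N 17-23 and N 20-15 were highest at 312 and 230 CPM. C2 was at 7.48 ± 15.6 and 5.74 ± 12.3 CPM (log2 fold change 0.44, adjusted p = 0.802), with medians of 0.737 and 1.58 CPM. In the lectin and alternative pathways, COLEC12 had an adjusted p of 0.137 and CFP, properdin, one of 0.127, and SUSD4, a membrane regulator, had one of 0.365. CALR and C1QBP, which bind C1q and have other roles inside the cell, had adjusted p values of 0.133 and 0.960, and C8G one of 0.617. C1QA, C1QB, C1QC, MBL1, MBL2, C8A, C8B and VTN had 0 counts in all 20 clones, and C5 had 1, C6 had 9 and C9 had 19. CSMD2, a membrane regulator, and CPN2, of the fluid-phase list, did not pass the filter and had 558 and 155 counts. They averaged 0.0798 and 0.0538 CPM in N and 3.33 and 0.784 CPM in A clones, with 8 A clones above every N clone for each, and were singled out after their values were seen.

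Of 26 tested genes of GPI anchor synthesis, on which CD55 and CD59 depend for their place in the membrane, 3 were higher and 2 lower in A clones, with a median log2 fold change of 0.0196, and over all genes tested 20.6% were called. PGAP3, which remodels the anchor, was at 19.8 ± 2.90 CPM in N and 26.2 ± 4.63 CPM in A clones (log2 fold change 0.40, adjusted p = 0.00516). GPAA1, a subunit of the enzyme that attaches the anchor, was at 58.2 ± 6.57 and 70.8 ± 6.88 CPM (log2 fold change 0.28, adjusted p = 0.0128). PIGH was also higher (log2 fold change 0.65, adjusted p = 0.0448), and PGAP2 (-0.34, adjusted p = 0.0252) and PIGU (-0.28, adjusted p = 0.0467) were lower. These 3 are named after their values were seen, as are the cell type markers named above.

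Of the 6 tested genes listed as early progenitor markers apart from CD55, 1 was higher and 1 lower in A clones, where 10.3% of all genes tested were called in each direction. CD34 was lower, at 32.7 ± 39.5 CPM in N and 5.01 ± 4.53 CPM in A clones, with 5 A clones below every N clone (log2 fold change -2.55, adjusted p = 0.0233). CD34 is, after LOC518224, the nearest protein-coding gene to CD46 in the annotation of ARS-UCD2.0, and CR2 is, after LOC515150, the nearest to CD55. ANXA3 was higher, at 12.5 ± 14.8 and 64.4 ± 26.8 CPM (log2 fold change 3.29, adjusted p = 0.00283). PI16 and DPP4, used with CD55 to mark such cells in other species, had 36 and 41 counts over all clones and were not tested.

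Across 12900 genes, those most like CD55 over the 20 clones, by Pearson correlation of log2 CPM centred within animal, were RNF112 (r = 0.927), MYH10 (0.910), STEAP1 (0.902), MUC1 (0.891) and BCL3 (0.888). Opposite to it were S100A5 (-0.922), TPPP3 (-0.905) and HOMER2 (-0.893). This measure includes the difference between the groups, and RNF112, like CD55, was lower in A clones, with means of 38.8 CPM in N and 2.56 CPM in A clones. Centred also within condition, over 16 clones, the genes most like it were ZNF385A (0.924), RIPK2 (0.882), MYRF (0.876), HOGA1 (0.873) and ZNF584 (0.863), and opposite were TPCN1 (-0.899), XRCC6 (-0.898) and RTN3 (-0.880). No gene was in both lists. These genes are the extremes of 12900 correlations over few clones, and how high such values reach by chance was not tested. MUC1 was low, with means of 0.828 CPM in N and 0.407 CPM in A clones.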

How the data were processed

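RNA from 20 clones (10 A, 10 N, 4 animals) was sequenced from directional libraries. The authors deposited raw counts per gene: per the labels, reads were processed with bcl2fastq 2.20, Trimmomatic 0.36, STAR 2.5.2b and featureCounts of Subread 1.5.2 with the bovine assembly ARS-UCD1.2. The strand setting is not given in the sources used here, so overlapping genes are uncertain. A row with no gene name (0.113% to 0.333% of counts) was left out, and 0 columns belonged to other samples. All 9 members matched the RefSeq table by symbol. That table is of assembly ARS-UCD2.0, so no coordinates are given.

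Counts were tested with edgeR 4.0.16 in R 4.3.3 (TMM, default filter, robust quasi-likelihood F test, Benjamini-Hochberg adjustment over all genes tested), with the animal as a block. The pairing comes from the animals, whose A and N clones deviated together (r = 0.253, 0.193, 0.241 and 0.440). Interaction and animal terms used the 16 clones of animals 22 and 23. A prior count of 2 was added for log2 CPM. Scripts were tested on simulated data. The members, lists and tests were chosen with earlier results of these data known. Named genes were the members, other complement genes called or, per list, the 3 highest not called, the 5 most like and 3 most opposite to CD55, and 2 called genes of each other list. For 1 such gene, values are not reported here. Alternatives were other normalizations and filters, DESeq2 1.42.0, limma-voom (limma 3.58.1), and leaving out each animal and clone. Leaving out the 4 clones of mesothelial marker sums above 500 CPM was chosen after seeing the data.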

Additional observations from a re-analysis of the deposited data

Results flagged for a closer look

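Of 16 groups of 10 clones examined for a value far from the rest (8 members in A and in N clones; C7 was left out for its few counts), 1 was past the 95% critical value of Dixon's ratio. It was CD59 in N clones, where clone 20-15 stood at 8.26 on the log2 CPM scale and the next clone at 6.82, a ratio of 0.519 against a critical value of 0.466. About 1 in 20 such groups is expected past it by chance. No member was called in the interaction of condition and animal.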

How the results depend on the processing

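CD55 kept its direction in all 33 alternatives (log2 fold change -3.27 to -2.33) and its call in 31. Members called numbered 2 with upper-quartile normalization, with no filter, with DESeq2 without the replicate block and without animal 20, 3 with DESeq2 with the block, 0 without animal 22 and 0 without animal 23, and 1 to 2 when 1 clone was left out. In the fit with no replicate block, 1 member (CD55) and 2168 genes were called, and no other member's call changed. Genes called fell to 1471 without animal 22, 32 without animal 23 and 1393 without the 4 clones of high mesothelial marker level, and ranged from 1984 to 3133 with 1 clone left out. The interaction called 116 genes with DESeq2 and 0 to 11 with 1 clone left out. Animal 23 against 22 called 32 genes with no filter, 425 genes and 1 member with DESeq2, and 4 to 178 genes with 1 clone left out. Members called in these 2 comparisons stayed at 0 with any 1 clone left out.

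Estimates turned sign without 1 animal or clone for C1R (-0.22 without animal 22) and C3 (-0.38 without A 22-11, up to 2.07 without N 22-9). The interaction turned for CFB (-2.95 without N 22-9, up to 2.62), C3 (0.093 without N 23-10 and 1.13 without A 22-11, down to -6.61), CD46 (-0.10 without A 23-14, up to 0.24) and CD55 (-0.19 without A 23-108, up to 1.01), and animal 23 against 22 turned for C1R (0.054 without A 22-11, down to -1.75). None of these was called, and the cause was not tested. Depth limits CFI, C7 and the genes at 0 counts, and the number of clones per animal limits the interaction.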

Other observations

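Of 13 tested genes of the NF-kappa-B and acute phase response, 4 were higher and 0 lower in A clones, with a median log2 fold change of 1.09. Over all genes tested, 10.3% were called higher and 10.3% lower. TNFAIP3, an inhibitor of NF-kappa-B signalling, was at 4.90 ± 2.67 CPM in N and 33.4 ± 22.2 CPM in A clones, with 9 A clones above every N clone (log2 fold change 2.68, adjusted p = 0.000169, edgeR quasi-likelihood test). The cytokine IL6 was at 0.378 ± 0.781 CPM in N and 4.85 ± 10.3 CPM in A clones (log2 fold change 3.78, adjusted p = 0.000792). Its groups overlapped, at 0 to 2.52 CPM in N and 0.293 to 34.1 CPM in A clones, with 2 A clones above every N clone.

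Of 10 tested genes of the interferon response, 0 were higher and 1 was lower in A clones, with a median log2 fold change of -0.0359, a share lower near the 10.3% over all genes tested. IRF7, a transcription factor of that response, was at 20.6 ± 35.7 CPM in N and 2.66 ± 2.18 CPM in A clones (log2 fold change -2.69, adjusted p = 0.0242), and its groups overlapped.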
